A study of Mus musculus with 11 samples.

Results

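Fibrillar collagens, fibronectin, nidogen and the aggrecanase Adamts5 were followed in primary mouse enteric glia exposed to ATP. The genes are Col1a2, Col3a1, Col5a1, Col5a2, Fn1, Nid1 and Adamts5, and every transcript listed under one of these gene symbols was taken. This gave 14 transcripts of 7 genes, out of 2510 transcripts of 1967 genes in the 5 deposited transcript tables.

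Enteric glia were grown from the small bowel muscle layer of adult C57BL/6 mice (BL6 in the labels), first as neurospheres and then attached in differentiation medium. In the ATP group, 6 libraries came from cultures kept for 6 h with 100 µM ATP, a nucleotide that signals through purinergic receptors when it is outside the cell. The control group had 5 libraries from cultures of the same strain and source. The labels put all libraries under the ATP treatment protocol, so the groups were taken from the sample titles, and no vehicle is named. The question was how the cultures' matrix transcripts differed between these groups. RNA was read as 3′ mRNA-Seq, which gives 1 fragment per transcript near its 3′ end, so levels were not divided by length.

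The tables give a mean per group and a total for each transcript, and no value per library. Spread between libraries, depth and intervals are therefore unknown here, and no test was made. A transcript or gene is called lower or higher when its ATP and control means differ by at least 1.5-fold, which is a limit of size and not of significance. The library codes fall into 3 sets. One holds 3 ATP libraries only, one holds 2 control libraries only and one holds 3 of each, so treatment and code set cannot be told apart in the group means. Of 10 glial markers, Gfap alone had rows. As deposited in the gliosis table, Gfap-201 had means of 107.9 in the ATP and 64.5 in the control group (1.67-fold higher), and Gfap-001 had 358.5 and 203.5 (1.76-fold higher). The totals of both rows fitted these means only with the groups exchanged, which would turn the direction. Gfap-201 had the same values among the significant genes, so its row does not seem to be on the count-like scale of the gliosis table described below. A separate qPCR of GFAP in the study runs in the direction deposited and was not analysed here. The glial label could not be checked with the other 9 markers.

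The extracellular matrix is built by cells from collagens, glycoproteins and proteoglycans. Collagens I, III and V form fibrils together, with collagen V at the core where it helps to set fibril diameter. Fibronectin is a cell-adhesive glycoprotein on which new collagen is laid down, nidogen links laminin to collagen IV in basement membranes, and Adamts5 cuts aggrecan and versican. Enteric glia lie within ganglia that are wrapped by such a matrix.

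The genes lie on 5 chromosomes of the mouse genome (GENCODE M21, GRCm38). Col3a1 is at chr1:45311538-45349706 on the plus strand and Col5a2 at chr1:45374321-45503282 on the minus strand, so both point towards each other with 24614 bases between them. Fn1 is at chr1:71585520-71653200 on the minus strand, Col5a1 at chr2:27886425-28039514 on the plus strand and Col1a2 at chr6:4504814-4541544 on the plus strand. Nid1 is at chr13:13437551-13512269 on the plus strand and Adamts5 at chr16:85856173-85901828 on the minus strand.

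Promoter windows from RefSeq (GRCm38.p6, 250 bases before to 50 after the start) matched 4 of the 7 genes: Col1a2, Col3a1, Col5a1 and Nid1. The upstream parts of 3 of them are shown, which are all that kept any base under the rule below. They stop before the first annotated base of the gene, so no transcribed base is printed, and for Col1a2 this left none. Capitals mark, on either strand, the promoter motifs TATAAA (bound by the basal transcription machinery), CCAAT (bound by nuclear factor Y) and GGGCGG (the GC box, bound by Sp factors). The windows are Col3a1 at chr1:45311288-45311537, Col5a1 at chr2:27886175-27886424 and Nid1 at chr13:13437352-13437550, all on the plus strand, 5′ to 3′.
Col3a1: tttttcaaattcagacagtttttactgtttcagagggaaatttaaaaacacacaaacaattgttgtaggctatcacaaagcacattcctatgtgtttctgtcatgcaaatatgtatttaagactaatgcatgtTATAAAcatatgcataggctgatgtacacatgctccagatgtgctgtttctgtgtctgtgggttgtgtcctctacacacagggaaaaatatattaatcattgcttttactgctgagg
Col5a1: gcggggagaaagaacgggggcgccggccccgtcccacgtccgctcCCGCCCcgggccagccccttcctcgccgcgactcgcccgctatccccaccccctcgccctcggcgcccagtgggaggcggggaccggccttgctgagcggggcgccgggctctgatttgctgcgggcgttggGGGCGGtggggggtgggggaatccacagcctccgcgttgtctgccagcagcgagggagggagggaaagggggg
Nid1: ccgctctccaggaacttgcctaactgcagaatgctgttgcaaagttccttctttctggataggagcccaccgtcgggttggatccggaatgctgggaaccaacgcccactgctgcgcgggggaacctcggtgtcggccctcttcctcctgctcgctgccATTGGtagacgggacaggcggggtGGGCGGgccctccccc

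The 3 windows differed in base composition, with 35.2% G and C for Col3a1, 76.4% for Col5a1 and 63.8% for Nid1. Col3a1 held TATAAA starting 117 bases before the start, and none of the other motifs. Col5a1 held GGGCGG starting 205 bases before the start on the minus strand and 73 bases before it on the plus strand. Nid1 held the GC box at 67 bases on the plus strand and the motif for nuclear factor Y at 91 bases on the minus strand. The letters TGACTCA, a site of the AP-1 factors, were in none of the 4 full windows. Over all 32851 RefSeq windows of 300 bases, 13.6% held TATAAA on either strand. The share was 37.4% for CCAAT, 35.7% for the GC box and 5.20% for the AP-1 site. The motifs do not overlap in the printed windows, and a match is a run of letters and not a measured binding site.

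Across the 7 genes, the ATP mean was lower for 6 and higher for 1. Summed over listed transcripts, Col1a2, Col3a1, Col5a1, Col5a2, Fn1 and Adamts5 were 1.69- to 5.98-fold lower in the ATP group, and Nid1 was 2.40-fold higher. For Col1a2 this rests on 1 listed transcript with means of 8.18 and 2.06, which do not give the level of the gene. Of the 14 transcripts, 12 were lower, Nid1-201 was higher and Fn1-009 was within the limit. Among the 9 transcripts whose larger group mean was at least 10, 8 were lower. The remaining 5 had larger means under 10, of which 4 were lower. For comparison, 52.2% of all rows were lower in the table of significant genes, and 37.9% in the table for the response to cytokine, which together list these transcripts. In bulk RNA, fewer cells of a type and less RNA per cell cannot be told apart.

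**Figure D1:**
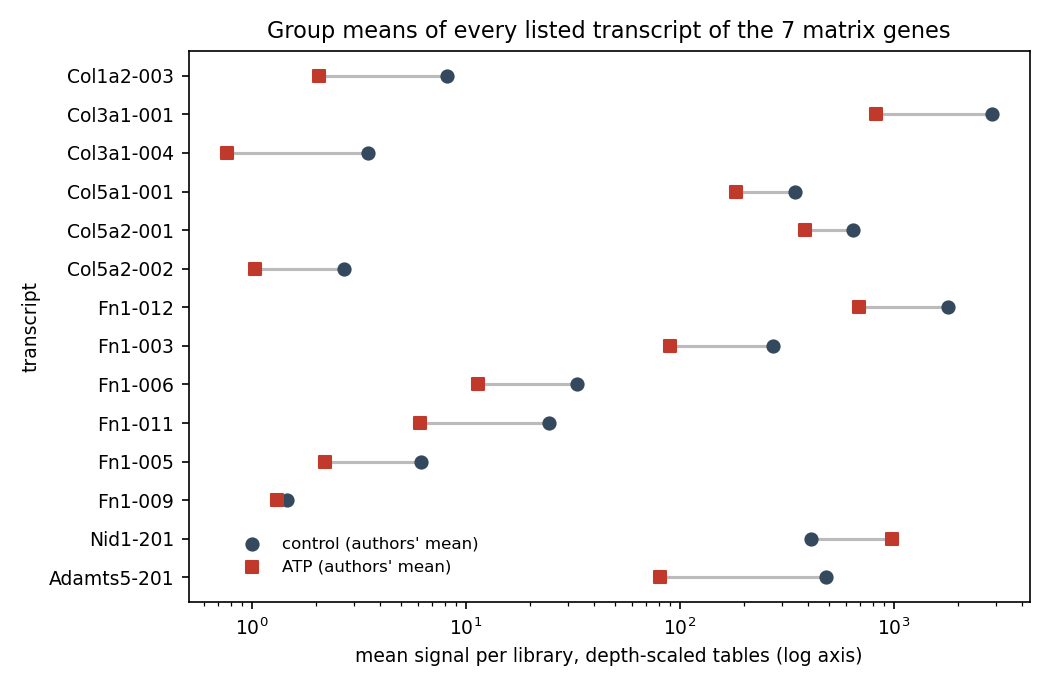
Mean depth-scaled signal per library (log axis) of each of the 14 listed transcripts in the control group (circles, 5 libraries) and the ATP group (squares, 6 libraries). The points are the authors' group means, with no error bars because no value per library was used. In 13 of the 14 rows the square lies to the left, and for Nid1-201 it lies to the right, at 984.6 against 410.6.

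Among the collagens followed here, Col3a1, the gene of the single chain of collagen III, had the highest listed signal. Col3a1-001 had a mean depth-scaled signal of 2870 in the control group and 825.9 in the ATP group, a 3.47-fold lower mean. Its control mean was the second highest of the 2071 transcripts in the table of significant genes. This transcript carried 99.9% of the listed Col3a1 signal. Col3a1-004 carried 0.115%, with means of 3.51 and 0.767, too low for its 4.57-fold difference to be set beside that of the main transcript.

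The genes of collagen V, the regulatory fibril collagen, had smaller differences. Col5a1-001, the only listed Col5a1 transcript, had a mean signal of 346.2 in the control and 182.9 in the ATP group, 1.89-fold lower. Col5a2-001 had 647.7 and 384.7, 1.68-fold lower, and carried 99.6% of the listed Col5a2 signal. Both chains thus stood lower by a similar ratio, and Col5a2 had 1.88 times the signal of Col5a1 in the control group and 2.11 times in the ATP group. Col5a2-002 had means of 2.70 and 1.04. The signal of Col3a1 was 4.42 times that of Col5a2 in the control group and 2.14 times in the ATP group, so the balance of listed collagen III to collagen V signal differed between the groups.

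For Col1a2, which encodes a chain of collagen I, the tables used here listed 1 transcript, Col1a2-003. Its mean signal was 8.18 in the control and 2.06 in the ATP group, 3.97-fold lower, with a ratio of 0.252 that became 0.333 when 1 was added to each mean. Other Col1a2 transcripts were not analysed here, so these values do not give the level of the gene.

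Fibronectin had 6 listed transcripts, of which 5 were lower. Fn1-012 had a mean signal of 1793 in the control and 691.1 in the ATP group, 2.59-fold lower, and carried 84.7% of the summed Fn1 signal. Fn1-003 had 273.1 and 90.7, 3.01-fold lower, with 12.3% of the signal. The differences of these main transcripts set that of the gene, which was 2131 in the control and 803.0 in the ATP group, 2.65-fold lower.

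The minor Fn1 transcripts mostly followed the same direction. Fn1-006 had means of 33.1 and 11.4, 2.90-fold lower, and Fn1-011 had 24.5 and 6.15, 3.98-fold lower. Fn1-005 had 6.20 and 2.21, 2.81-fold lower, whereas Fn1-009 had 1.46 and 1.32, a ratio of 0.901. The share of Fn1-012 was 84.1% in the control and 86.1% in the ATP group, and that of Fn1-011 was 1.15% and 0.766%. In GENCODE M21, 8 of the 17 Fn1 transcripts end within 10 bases of the gene's 3′ end, and reads from 3′ ends cannot tell such transcripts apart. None of the authors' 6 Fn1 names occurs in that release, so which of these they are is not known, and the split between them may depend on how the authors assigned reads. The table of significant genes held 3 of the 6 transcripts, Fn1-005, Fn1-006 and Fn1-011, which together carried 2.83% of the signal, so a sum over that table alone (63.8 and 19.8, 3.22-fold lower) describes minor transcripts. Fn1-012 and Fn1-003, which carried most of the signal, had no row there although both differed by more than 1.5-fold.

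Nid1, the gene of nidogen, was the exception. Nid1-201 had a mean signal of 410.6 in the control and 984.6 in the ATP group, 2.40-fold higher, a difference of 574.0. Its ATP mean was the 4th highest of the 2071 transcripts of significant genes, and its control mean the 21st highest. Of 22 basement membrane genes in a list of laminins, nidogens and related proteins, Nid1 alone had a row. Of the collagen IV genes, which stand in another list, Col4a1 had 1 listed transcript, Col4a1-008. Its ATP mean was lower, at 3.78 against 29.2 in the control group. Like those of Col1a2, these values do not give the level of the gene.

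Adamts5 had the largest fold difference of the 7 genes. Adamts5-201 had a mean signal of 482.7 in the control and 80.8 in the ATP group, 5.98-fold lower, and this ratio was the 21st lowest of 2071. In the gliosis table, whose values look like estimated counts not scaled for library depth, its means were 4922 and 874.8, 5.63-fold lower and the second lowest ratio of 222. Adamts4, the other main aggrecan-cutting enzyme of the family, stood in the same table with the opposite direction. Unlike Adamts5, it had no row among the significant genes. The summed means of Adamts4 were 85.0 in the control and 595.5 in the ATP group, 7.01-fold higher, with Adamts4-001 5.85-fold and Adamts4-002 7.53-fold higher. In GENCODE M21, all 3 Adamts4 transcripts end within 10 bases of the gene's 3′ end, so the split between its listed transcripts may depend on how reads were assigned. The listed signal of Adamts5 was 57.9 times that of Adamts4 in the control group and 1.47 times in the ATP group. Versican (Vcan), a substrate of both, had summed means of 1864 and 1656 there, a ratio of 0.888.

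The order of the genes by summed depth-scaled signal differed between the groups. In the control group it ran Col3a1, Fn1, Col5a2, Adamts5, Nid1, Col5a1 and Col1a2. In the ATP group it ran Nid1, Col3a1, Fn1, Col5a2, Col5a1, Adamts5 and Col1a2. The place of Col1a2 is that of its 1 listed transcript and not of the gene. Nid1 thus moved from place 5 in the control group to place 1 in the ATP group, and Adamts5 from place 4 to place 6. Whether neighbours in either order differ beyond the spread between libraries cannot be told, and Col3a1 and Fn1 lay close in the ATP group, at 826.7 and 803.0. Summed over the 6 lower genes, the signal was 6492 in the control and 2281 in the ATP group. Of this difference, Col3a1 made up 48.6%, Fn1 31.5%, the collagen V genes 10.2% and Adamts5 9.55%. The Fn1 part came mostly from Fn1-012 and Fn1-003, which had no row among the significant genes.

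**Figure D2:**
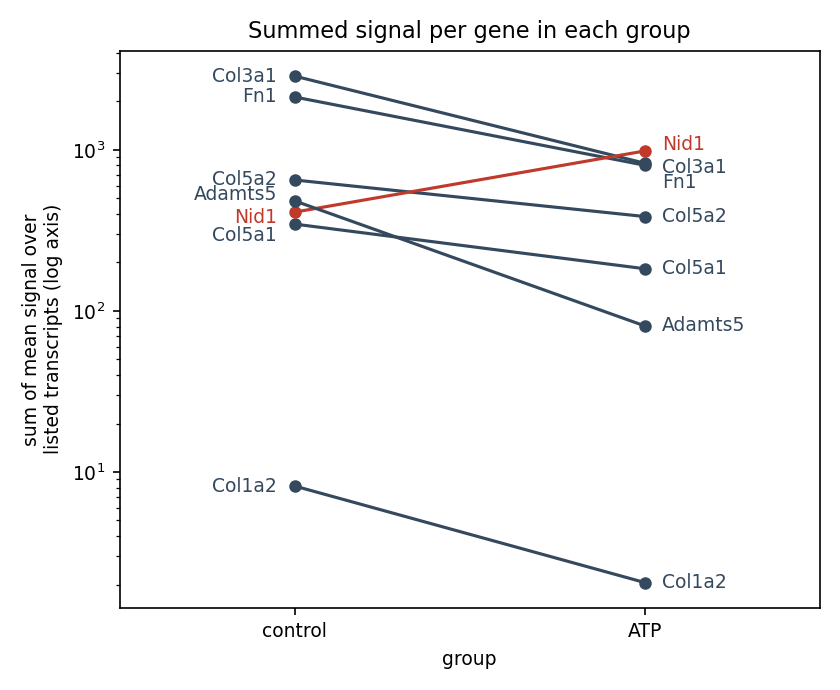
Summed mean depth-scaled signal of the listed transcripts of each gene (log axis) in the control and the ATP group, with a line joining the 2 values of a gene. Nid1 (red) goes from 410.6 to 984.6 and crosses the lines of Adamts5, Col5a2, Fn1 and Col3a1. The 6 other lines go down, that of Adamts5 most steeply, from 482.7 to 80.8.

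The members were read against all rows of the same tables. The table of significant genes was made by the authors from this same contrast, and every row in it differed by at least 1.5-fold, so nothing is drawn from membership itself. In it, 10 of 11 member transcripts were lower, against 52.2% of all 2071 rows, and 1 of 11 was higher, against 47.8%. The median ratio was 0.345 for the members and 0.644 for all rows. Among lower rows only, the median difference was 3.19-fold for the members and 2.24-fold for all. The 11 rows come from 7 genes and are not independent, and 3 are Fn1 transcripts with 2.83% of the Fn1 signal. By main transcript, Adamts5 (5.98-fold) and Col3a1 (3.47-fold) lay above the 2.24-fold of all lower rows. Col5a1 (1.89-fold) and Col5a2 (1.68-fold) lay below it.

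The tables built from gene categories give a background that was not chosen by size. The members themselves were chosen with earlier results of these data known, so this comparison and the one above describe them and test nothing. In the table for the response to cytokine, 7 of 8 member transcripts (6 of Fn1 and 2 of Col3a1) were lower, against 37.9% of 174 rows, with a median ratio of 0.339 against 0.886. In the gliosis table, 3 of 4 member transcripts (Adamts5-201, Col5a1-001 and Col5a2-002) were lower, against 27.5% of 222 rows, and 0 were higher, against 32.9%. The medians there were 0.514 for the members and 1.04 for all rows. Transcripts of a gene share their source, so these counts rest on 2 and 3 genes.

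**Figure D3:**
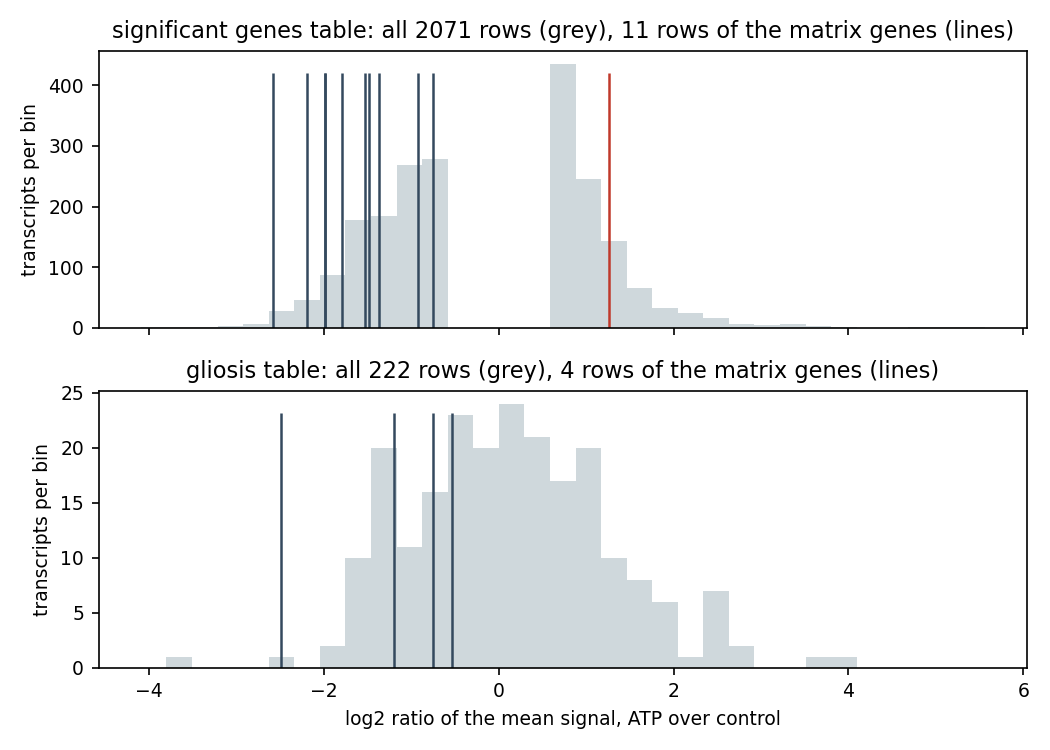
Number of transcripts per bin of the log2 ratio of the mean signal, ATP over control, for all rows (grey) of the table of significant genes (top, 2071 rows) and the gliosis table (bottom, 222 rows), with a vertical line for each row of the 7 genes. The empty middle of the upper panel is the authors' 1.5-fold limit, and Nid1-201 (red) is the single line on the higher side.

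The ratios depended on the scale. Gfap-201, whose values were equal in both kinds of table, was left out here. For the 49 other transcripts in both, the ratio in the gliosis table was a median 1.16 times that in the depth-scaled tables, with a range of 0.977 to 1.27. For the members this factor was 1.06 for Adamts5-201, 1.12 for Col5a1-001, 1.16 for Col5a2-001 and 1.13 for Col5a2-002. Col5a1-001 had gliosis table means of 3511 and 2083, 1.69-fold lower. Col5a2-001 had 6547 and 4502, 1.45-fold lower, which is inside the limit that its depth-scaled means pass, while Col5a2-002 had 27.7 and 12.0, 2.30-fold lower. All 4 kept the lower mean in the ATP group on both scales. The ratio of Col5a2 to Col5a1 was 1.87 in the control and 2.17 in the ATP group on the scale of the gliosis table. The 8 member transcripts listed in more than 1 depth-scaled table had equal values in each.

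Other matrix genes with a row mostly stood on the same side as the members. Of 11 fibrillar collagen genes, the 4 members alone had a row. Of 33 other collagen genes, 5 had a row and all 5 were lower. Of all rows, 27.5% were lower in the gliosis table and 52.2% among the significant genes. Col6a1 (2.39-fold), Col6a2 (2.63-fold) and Col12a1 (2.52-fold), genes of a microfibrillar and a fibril-associated collagen, were lower in the gliosis table. Col14a1 (3.02-fold) and the basement membrane collagen gene Col4a1 (7.73-fold, from Col4a1-008 alone) were lower among the significant genes. Most rows come from tables that the authors selected, and genes without a row were not analysed here.

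Matrix glycoproteins and proteoglycans were mixed. Of 42 genes, 12 had a row, of which 7 were lower, 1 was higher and 4 were within the limit. In the gliosis table, 3 of 8 were lower and 1 was higher, against 27.5% and 32.9% of all rows. The 4 in depth-scaled tables were all lower, against 52.2% among the significant genes and 37.9% in the table for the response to cytokine. Beside Fn1, the collagen-binding proteoglycan gene Dcn was 2.29-fold lower (57004 and 24873 in the gliosis table), Thbs2 2.95-fold and the elastic fibre gene Fbln5 2.15-fold lower. Spp1, which encodes osteopontin, was 2.44-fold higher.

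Among 24 genes of the ADAMTS family, 8 had a row, and 7 were lower. All 7 stood among the significant genes, where 52.2% of all rows were lower. Adamts4 was the only higher one, and it stood in the gliosis table alone, where 32.9% of all rows were higher. Beside Adamts5, Adamts15 was 6.95-fold lower (36.1 and 5.20), Adamts10 3.33-fold and Adamtsl5 4.70-fold lower. Of these, only Adamts5 exceeded a depth-scaled signal of 100 in either group.

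**Figure D4:**
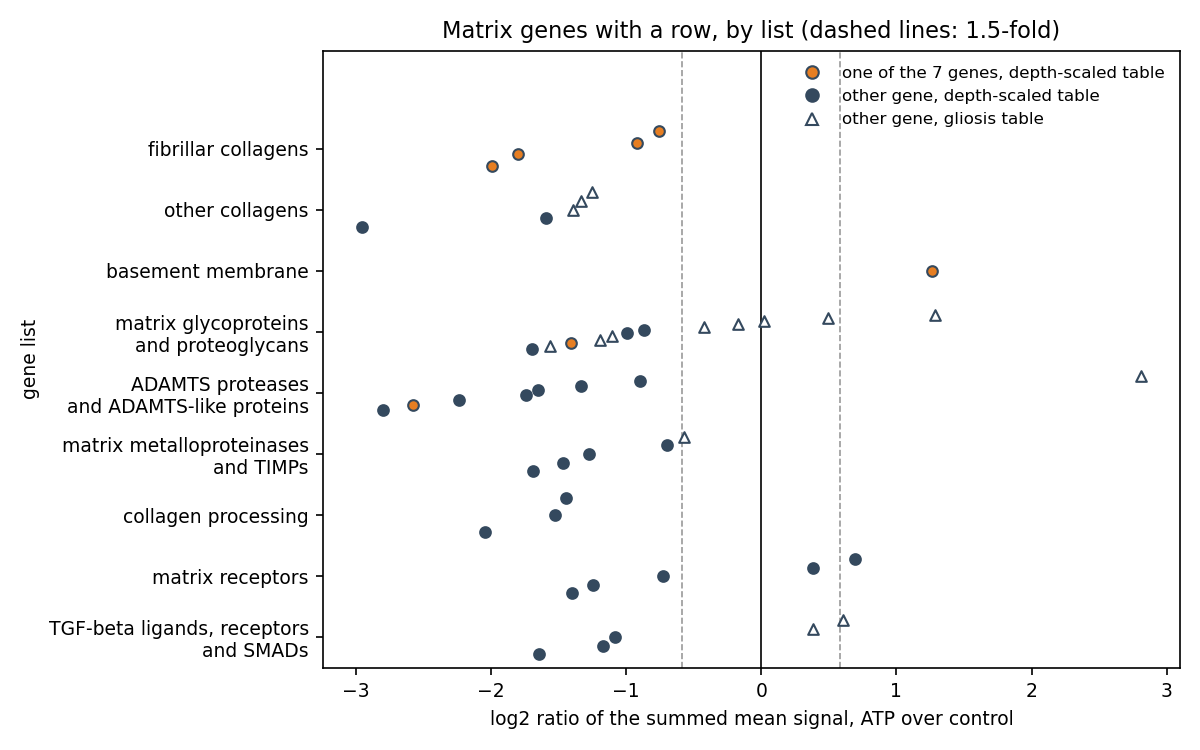
The log2 ratio of summed mean signal, ATP over control, for every gene with a row in 9 matrix gene lists, with the 7 genes in orange, other genes from depth-scaled tables in dark blue and genes from the gliosis table as open triangles. Points left of the left dashed line are at least 1.5-fold lower. All fibrillar and other collagens lie there, Nid1 is the only basement membrane point and Adamts4 is the rightmost point, at 7.01-fold higher.

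The study describes such cultures as highly enriched for GFAP-positive cells, and it also counted fibroblasts in them by staining for smooth muscle actin. The cultures it stained were thus not glia alone, and whether the sequenced ones were among them is not stated. Markers of other cells had few rows. Of 8 fibroblast markers Dcn alone had a row and was 2.29-fold lower, and Dcn is also one of the matrix genes above. Of 8 smooth muscle markers Lmod1 alone had a row, with means of 3.27 and 1.28, 2.56-fold lower. Of 8 neuronal markers 3 had a row, with Elavl3 2.64-fold and Uchl1 1.75-fold higher and Ret at a ratio of 1.40. Of 6 macrophage markers Cd68 was 1.91-fold higher in the gliosis table, and no endothelial marker had a row. The part of other cells in the collagen and fibronectin values was not tested.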

How the data were processed

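RNA of 11 cultures (6 ATP, 5 control) was read as 3′ mRNA-Seq. Per the labels, the processing used Partek. Aligner, annotation and genome build: not given in the sources used here. Of 6 deposited tables, 5 list transcripts and the other, of GO terms, was not used. No source states the scale, so it was judged by size and decimals. The authors' gliosis table appears to hold estimated counts, not corrected for depth, except that Gfap-201 has its depth-scaled values there. The deposited values of the remaining 4 appear to be a depth-scaled signal. Columns of the authors' own comparison (p-values, adjusted p-values, ratios and fold changes) were not used.

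In every member transcript the deposited total matched the sum of both group means, each multiplied by its number of libraries (6 and 5). Ratios are the ATP mean over the control mean, with no pseudocount and no filter, and a limit of 1.5-fold. Each gene was read in the depth-scaled table that lists most of its transcripts (for Fn1, the response to cytokine), and its means were summed. A transcript's share is of its gene's listed total. No test was made, since the files give group means and the authors' own comparison but no value per library. Other genes were counted in 9 matrix lists and 6 marker lists, naming up to 4 per list and direction by the larger mean, with additions named for the comparison with Adamts5, Nid1 or markers. The members and lists were chosen with earlier results of these data known. Positions come from GENCODE M21 (1908 of 1967 symbols matched) and promoters from RefSeq. Only 2 of the 14 member transcript names occur in that GENCODE release, so the authors' transcripts were not matched to it. Alternatives were a pseudocount of 1, a 2-fold limit, a larger mean of at least 10, other transcripts and the gliosis table. A further 2 for the lists (the gliosis table where a gene is in both, and gliosis ratios divided by the median factor between tables) were chosen after seeing the data. Scripts were tested on simulated data. Python 3.11.15, pandas 2.3.3, numpy 2.4.6 and matplotlib 3.10.9 were used.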

Additional observations from a re-analysis of the deposited data

How the results depend on the processing

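Every member kept its direction under each alternative that gave a value. With the gliosis table in place of the depth-scaled one, the summed ratio of Col5a2 was 0.687 and no longer passed the 1.5-fold limit, nor did the ratio of 0.688 of Col5a2-001. The other 18 summed ratios and 17 transcript ratios under alternatives stayed on their side of it. Adding 1 to both means gave a ratio of 0.392 for Col3a1-004 and 0.552 for Col5a2-002, both still past the limit. The share of Fn1-009 was 0.164% of the ATP signal against 0.0984% of the total. With a limit of 2-fold, 2 fibrillar collagen genes were lower and no matrix receptor or TGF-beta gene was higher. With a larger mean of at least 10, 3 ADAMTS genes were lower. In 2 alternatives chosen after seeing the data, the gliosis table gave 2 higher matrix receptor genes (Cd44 added), and dividing gliosis ratios by the median factor left 0 higher TGF-beta genes and put Tnc (0.643) and Timp1 (0.582) among the lower genes. No paired analysis was possible because the files give no value per library, and for the same reason no library could be left out and no depth or spread can be given. Means under 10 are low on the depth-scaled scale, and the sources used here do not state how it relates to reads. For the same 49 transcripts in both kinds of table, the count-like gliosis means were larger. They were a median 10.1 times the scaled means in the control and 11.7 times in the ATP group.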

Other observations

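Genes that make, modify and bind collagen also had rows. Of 29 collagen processing genes, 3 had a row and all were lower among the significant genes, where 52.2% of all rows were lower. Plod2, a lysyl hydroxylase that prepares collagen for cross-links, had summed means of 315.4 in the control and 116.1 in the ATP group, 2.72-fold lower. P4ha3, a subunit of prolyl hydroxylase, had 18.3 and 4.42, and Loxl4, of the lysyl oxidase family that cross-links collagen, had 3.38 and 1.17. Of 22 genes of matrix metalloproteinases and their inhibitors, 5 had a row. Mmp8, Mmp11, Mmp19 and Mmp23, also among the significant genes, were 1.62- to 3.23-fold lower. The inhibitor gene Timp1 had gliosis table means of 4582 and 3089, a ratio of 0.674, just inside the limit, and 0.582, past it, when divided by the median factor of 1.16 between the gliosis and the depth-scaled tables.

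Of 26 matrix receptor genes, 5 had a row. Among the significant genes, where 52.2% of all rows were lower and 47.8% higher, 3 were lower and 1 was higher. Itgb5, an integrin chain of vitronectin receptors, was 2.64-fold lower (132.7 and 50.4), the syndecan gene Sdc2 1.65-fold lower and Itga1, of a collagen-binding integrin, 2.36-fold lower. Itga5, the fibronectin receptor chain, was 1.62-fold higher at low means (7.57 and 12.2), opposite to Fn1 itself, and the hyaluronan receptor gene Cd44 had a ratio of 1.30 in the depth-scaled tables and 1.54 in the gliosis table, on either side of the limit. Of 16 genes around TGF-beta, which is known to raise collagen and fibronectin transcription in many cells, 5 had a row. The 3 lower ones stood among the significant genes, and 1 was higher in the gliosis table, where 32.9% of all rows were higher. The receptor gene Tgfbr2 was 2.26-fold lower (84.2 and 37.3) and Tgfb3 2.12-fold lower. The inhibitory Smad6 was 3.12-fold lower at low means (4.71 and 1.51). Tgfbi was 1.52-fold higher in the gliosis table, and its ratio divided by the median factor between the tables was 1.31, inside the limit. Tgfb1 had a ratio of 1.30 in the gliosis table. As above, these are differences of group means with no test.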
